A study of Mus musculus with 2 samples.

Results

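Igf2bp1, Igf2bp2, Igf2bp3, Lin28a, Lin28b, Hmga1 and Hmga2 are RNA-binding and chromatin genes best known from embryonic tissue, and they are described here as they were measured in the heart of mouse embryos at embryonic day 11.5. They were taken by name: the rows of the deposited gene tables whose identifier carries 1 of the 7 symbols in the GENCODE mouse annotation, which found all 7 among 43346 mouse genes. The rule uses names and no measured value, though the genes were picked with earlier results of these data known. The hearts came from B6NCrl embryos, pooled over both sexes, and total RNA was sequenced in 2 libraries of 1 group, numbered replicate 2 and replicate 1 in the labels. The labels record separate biosamples under the same donor identifier, give a pool of 109 embryos for replicate 1 and no number for replicate 2, and list no treatment and no mutant allele. Each pool mixes all cell types of the dissected heart, so in every value below fewer cells of a type and less RNA per cell cannot be told apart.

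The 3 gene families are linked through the let-7 microRNAs. LIN28A and LIN28B bind let-7 precursors and block their maturation. Mature let-7 pairs with sites in the 3′ untranslated regions (UTRs) of messenger RNAs and lowers their output, and HMGA2, IGF2BP1 and both LIN28 genes are among the targets described in mammals. IGF2BP proteins bind messenger RNAs in the cytoplasm, affecting their stability, transport and translation. HMGA proteins bend DNA at AT-rich sequence. Most of these genes are known for high levels in the embryo that decline toward birth.

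Mature let-7 sequences are shown because their seed, bases 2 to 8, sets which sites they pair with. Of 11 let-7 family names in the RefSeq table (GRCm38.p6), 10 share the seed GAGGUAG, in capitals below, and let-7j has GAGGUAU.
let-7a-5p: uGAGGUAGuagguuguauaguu
let-7d-5p: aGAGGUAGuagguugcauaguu
let-7g-5p: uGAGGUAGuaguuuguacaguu
miR-98-5p: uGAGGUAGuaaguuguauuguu
let-7j: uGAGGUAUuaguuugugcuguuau

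LIN28 proteins recognise GGAG in the loop of the precursor. The letters GGAG stood between the arms in 8 of the 11 hairpins for which both arms are listed. The let-7g hairpin (chr9:106178840-106178927, plus strand), with GGAG in capitals, is set beside the let-7b hairpin (chr15:85707319-85707403, plus strand), which has no such letters there.
let-7g hairpin: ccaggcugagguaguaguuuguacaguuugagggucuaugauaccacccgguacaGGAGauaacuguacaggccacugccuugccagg
let-7b hairpin: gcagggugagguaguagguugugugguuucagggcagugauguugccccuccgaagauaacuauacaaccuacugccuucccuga

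The complement of the shared seed, CTACCTC on the sense strand, was searched in the annotated 3′ UTR of the leading coding transcript of each gene (GENCODE M21 on GRCm38, the assembly also called mm10). All 7 UTRs held it, 17 times in all, and 9 of the 17 matches were followed by A. Of 19588 protein-coding genes with a 3′ UTR of 30 bases or more, 1523 (7.8%) held it at least once. Igf2bp1, Lin28b and Hmga2 had 4 matches each, a number reached by 9 (0.05%) of those genes, these members included. Lin28a had 2 matches, and Igf2bp2, Igf2bp3 and Hmga1 had 1 each.

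UTR length bears on such counts. The Igf2bp1 UTR is 6337 bases long. Of 381 UTRs of like length (0.8 to 1.25 times as long, the gene itself included), 36.0% held a match and 0.52% at least 4. The UTR of Hmga2 is 2977 bases long, and 0.06% of its 1818 like held at least 4, which is Hmga2 alone. For Lin28b, 4445 bases long, the share with at least 4 was 0.42% of 946, Lin28b included. Hmga1 has the shortest UTR, 1179 bases, and 8.0% of its like held a match. Matches describe the reference sequence, and binding of let-7 was not measured.

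**Figure D1:**
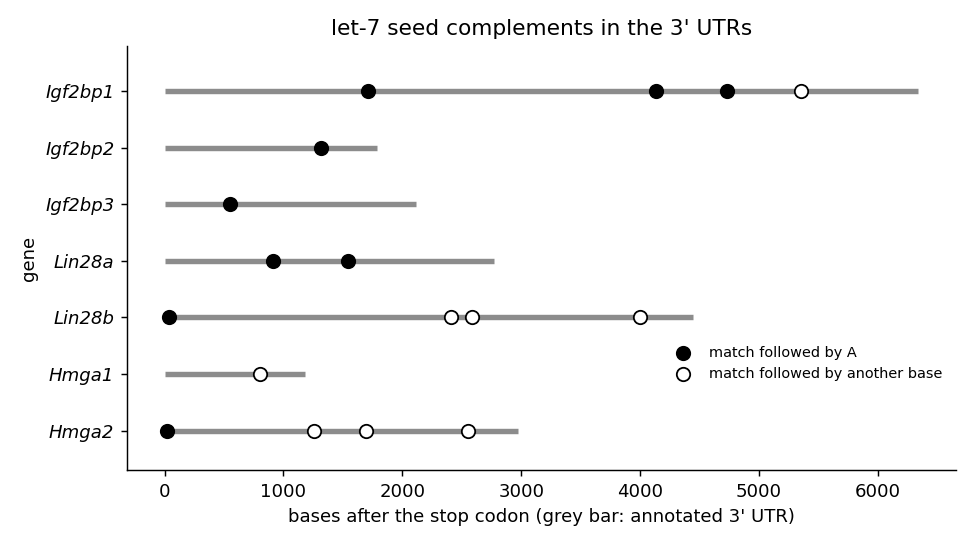
Position of each let-7 seed complement (points) along the annotated 3′ UTR (grey bars) of the 7 genes, in bases after the stop codon; filled points are matches followed by A. Igf2bp1, Lin28b and Hmga2 carry 4 points each, and the match nearest the stop codon lies 21 bases after it in Hmga2 and 36 in Lin28b.

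The match nearest the stop codon in each gene is shown with its flanks, the 7 matching bases in capitals, because these are the letters a let-7 seed would pair with. For Hmga2, a textbook let-7 target, all 4 are given. Each line reads 5′ to 3′ on the gene's strand, with the window's GRCm38 position.
Igf2bp1, chr11:95961771-95961800, minus strand: gctgtgcgaagtaaaCTACCTCaaggtgtg
Igf2bp2, chr16:22059466-22059495, minus strand: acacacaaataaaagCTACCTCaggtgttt
Igf2bp3, chr6:49086780-49086809, minus strand: tgcatttttactcaaCTACCTCaggtattc
Lin28a, chr4:134005182-134005211, minus strand: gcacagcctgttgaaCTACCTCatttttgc
Lin28b, chr10:45381015-45381044, minus strand: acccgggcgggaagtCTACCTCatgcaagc
Hmga1, chr17:27563277-27563306, plus strand: tcctctgttcacaaaCTACCTCtggacggt
Hmga2, chr10:120364217-120364246, minus strand: gccgacattcaatttCTACCTCagcatcag
Hmga2, chr10:120362980-120363009, minus strand: ccccactcctcaataCTACCTCtgaatgct
Hmga2, chr10:120362542-120362571, minus strand: ctgatttgcaaggaaCTACCTCcacacttc
Hmga2, chr10:120361684-120361713, minus strand: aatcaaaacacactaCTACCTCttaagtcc

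Replicate 2 had 27642765 expected counts (estimated reads, divided between genes where shared), of which 25261719 fell in mouse genes, and replicate 1 had 37617442, of which 34447169 did. Levels are TPM, which scales for transcript length and library size, with mean ± SD over the 2 libraries (n = 2). Mouse genes held 82.9% of TPM in replicate 2 and 84.0% in replicate 1, and levels are not rescaled for the other rows. Markers of heart muscle were present in both libraries, 8 of 8 at 1 TPM or more, led by the actin gene Actc1 at 9632.52 TPM in replicate 2 and 9151.51 in replicate 1. Red cell markers were higher still, with the globin gene Hbb-y at 24884.58 TPM in replicate 2 and 29321.55 in replicate 1. The 7 red cell markers summed to 38101 TPM in replicate 2 and 45309 in replicate 1. For the 8 heart muscle markers the sums were 26676 TPM in replicate 2 and 24897 in replicate 1. None of 7 markers of pluripotent and germ cells reached 1 TPM in both, and Pou5f1 and Zfp42 had 0 counts. Of 10 liver and yolk sac markers, 9 were at least 2-fold lower in replicate 2, their summed level over all 10 being 71.6 TPM there and 259 in replicate 1. With 1 group of 2 libraries, an exact two-sided sign-flip test cannot go below p = 0.5, so differences in level are given with the spread and the overlap of the libraries alone.

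The 7 genes spanned a wide range, with Hmga1 at the top and Lin28a at the bottom. Of the 7, 6 had 1 TPM or more in both libraries, which 56.4% of 21474 protein-coding genes did. Their median level was 36.41 TPM in replicate 2 and 37.19 in replicate 1, and that of all protein-coding genes was 2.91 in replicate 2 and 2.94 in replicate 1. In falling order of mean TPM over all transcripts the genes ran Hmga1, Igf2bp2, Igf2bp3, Igf2bp1, Hmga2, Lin28b and Lin28a. On that scale no gene's range over the libraries overlapped that of its neighbour. The narrowest step, Igf2bp1 over Hmga2, was 1.36-fold, and its log2 ratio was 0.44 ± 0.275.

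**Figure D2:**
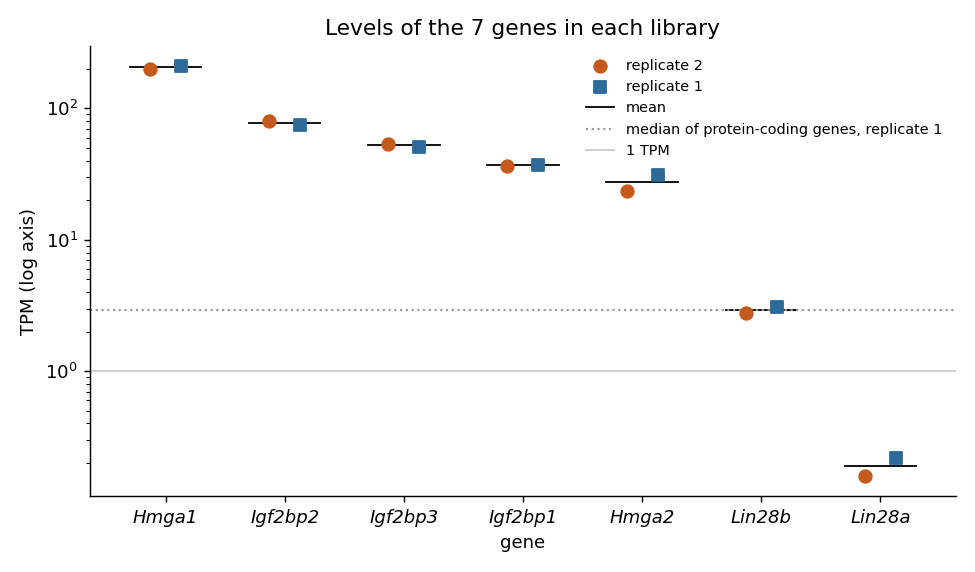
TPM on a log axis for the 7 genes, replicate 2 as circles and replicate 1 as squares, with the mean as a bar; the dotted line is the median of all protein-coding genes in replicate 1. Hmga1 lies near 205 TPM, Lin28b at the protein-coding median and Lin28a below 1 TPM.

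Lin28b was the higher of the LIN28 genes. It encodes an RNA-binding protein with a cold-shock domain and zinc knuckles (chr10:45376620-45486395, minus strand). Lin28b had 2.78 TPM in replicate 2 and 3.10 in replicate 1, a mean of 2.94 ± 0.226. These came from 297 counts in replicate 2 and 469 in replicate 1. That level is close to the protein-coding median, at rank 10752 of 21474. All of it was assigned to the transcript Lin28b-201, which has 271 codons.

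Lin28a, the paralog known from pluripotent cells (chr4:134003330-134018841, minus strand), was barely detected. It had 0.16 TPM in replicate 2 and 0.22 in replicate 1, from 11 counts in replicate 2 and 21 in replicate 1. Scaled to library size these were 0.435 CPM in replicate 2, where 3 counts would give 0.119, and 0.610 CPM in replicate 1, where they would give 0.0871. Lin28b stood 15.6-fold above Lin28a, a log2 ratio of 3.97 ± 0.214, with no overlap. The size of that ratio hangs on the few Lin28a counts: with the authors' posterior mean TPM, which puts Lin28a at 0.590 TPM in replicate 2 and 0.540 in replicate 1, it was 2.35 on the log2 scale. Lin28a counts were thus too few for a close estimate, though Lin28b was higher under each scale tried.

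The let-7 genes themselves could not be measured in these libraries. All 10 rows of the family had 0 counts in both, but 6 of them have an effective length of 0 in the files and the longest 9 bases, and the labels give a size range above 200. Some longer transcripts that span let-7 hairpins on the same strand were measured. Huwe1, a ubiquitin ligase gene whose introns hold let-7f-2 and miR-98, had 29.18 TPM in replicate 2 and 46.72 in replicate 1. Mir99ahg, the long RNA over let-7c-1, had 21.93 TPM in replicate 2 and 25.24 in replicate 1. Wdr82, over let-7g, had 16.79 TPM in replicate 2 and 17.96 in replicate 1. 6720427I07Rik, over the cluster of let-7d, let-7f-1 and let-7a-1, was the lowest measured, with 3.47 TPM in replicate 2 and 2.66 in replicate 1. Levels of these RNAs do not give the level of mature let-7.

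Genes that process or turn over let-7 were present as a set: 15 of 17 had 1 TPM or more in both libraries, and the mean of their median over the libraries was 18.4 ± 0.757 TPM. Of all protein-coding genes, 56.4% reached 1 TPM in both, a share to set beside each list count below. Those that did had a median of 16.2 TPM in replicate 2 and 15.7 in replicate 1. Ddx5, a helicase of the nuclear processing complex, led with 204.45 TPM in replicate 2 and 213.30 in replicate 1. Tarbp2, a Dicer partner, had 80.07 TPM in replicate 2 and 71.86 in replicate 1. Tut4, whose enzyme adds uridines to precursors held by LIN28, had 36.13 TPM in replicate 2 and 40.16 in replicate 1. Drosha, the nuclear RNase that cuts the primary transcript, had 37.91 TPM in replicate 2 and 27.03 in replicate 1. Tut7, the paralog of Tut4, had 17.64 TPM in replicate 2 and 16.13 in replicate 1, and Dis3l2, which degrades uridylated precursors, had 13.75 in replicate 2 and 11.62 in replicate 1. Trim71, a ubiquitin ligase gene of early embryos that is itself a let-7 target, was lowest by the mean, with 0.73 TPM in replicate 2 and 0.82 in replicate 1. Ago4, an Argonaute gene, had 0.94 TPM in replicate 2 and 0.78 in replicate 1, so the ranges of these genes overlapped.

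Of other genes with the cold-shock domain, Ybx1, Ybx3 and Carhsp1 exceeded Lin28b in both libraries. Ybx1, an abundant mRNA-binding protein gene, had 572.86 TPM in replicate 2 and 582.68 in replicate 1. Ybx3 had 32.31 TPM in replicate 2 and 41.13 in replicate 1, and Carhsp1 had 31.34 in replicate 2 and 28.76 in replicate 1. Ybx2, the germ cell member, had 1.13 TPM in replicate 2 and 3.19 in replicate 1, from 15 counts in replicate 2 and 46 in replicate 1, and was the only gene of the 5 that was 2-fold or more apart.

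Hmga1, an architectural chromatin protein gene (chr17:27556497-27563674, plus strand), was the highest of the 7. It had 200.36 TPM in replicate 2 and 208.83 in replicate 1, a mean of 205 ± 5.99, which is rank 575 of 21474 protein-coding genes. Hmga1b, a near-identical copy on chromosome 11 that is not counted among the 7, had 3.30 TPM in replicate 2 and 4.04 in replicate 1. The deposited posterior SD of the count was the same for Hmga1 and for the copy, 19.6 counts in replicate 2 and 25.4 in replicate 1. It stands against 101 counts of Hmga1b and 5900 of Hmga1 in replicate 2, and 176 and 8875 in replicate 1, so it is large only beside those of the copy. The last 102 bases of Hmga1 overlap AI413582 on the other strand, which had 160 counts in replicate 2 and 254 in replicate 1, and the strand setting is not given in the sources used here.

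Hmga1 makes a long and a short protein form by a choice of exon end. The long form keeps 33 further coding bases (chr17:27559671-27559703), 11 codons between the DNA-binding AT hooks. They are shown in capitals after the 27 bases that both forms share (chr17:27559644-27559703, plus strand), because the stretch begins with GTGAGT, the letters of a splice donor.
Hmga1 exon end: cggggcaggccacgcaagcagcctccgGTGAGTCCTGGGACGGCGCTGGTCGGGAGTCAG
Transcripts with the stretch held 67.3% of Hmga1 TPM in replicate 2 and 64.7% in replicate 1, and those without it held 32.7% in replicate 2 and 35.3% in replicate 1. The long form was 1.94-fold above the short, a log2 ratio of 0.96 ± 0.121. Hmga1-203, long, led with 57.6% in replicate 2 and 58.2% in replicate 1, followed by Hmga1-201, short, with 27.3% in replicate 2 and 29.9% in replicate 1. Transcripts with the stretch have 106 or 107 codons in M21, and those without it 95 or 96. Hmga1-203 has 106 and Hmga1-201 has 96, so the 11 codons are not the only coding difference between them. Which transcripts hold the stretch was read from M21, whose models of Hmga1-203 and Hmga1-201 are 40 bases shorter and 38 bases longer than those the authors counted on.

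Hmga2, the paralog whose loss makes pygmy mice (chr10:120361275-120476469, minus strand), was lower and less even between the libraries. It had 23.43 TPM in replicate 2 and 31.34 in replicate 1, a mean of 27.4 ± 5.59, at rank 4179. These came from 1704 counts in replicate 2 and 3229 in replicate 1. Hmga1 stood 7.55-fold above it, and the log2 ratio of Hmga2 over Hmga1 was -2.92 ± 0.254. Hmga2-201, with 108 codons, held 99.8% of the TPM in replicate 2 and 99.6% in replicate 1. The antisense gene 1700006J14Rik, which overlaps Hmga2 over 20180 bases, had 23 counts in replicate 2 and 56 in replicate 1, few beside those of Hmga2.

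The other high mobility group chromatin genes, of the HMGB and HMGN classes, were abundant as well. All 7 had 1 TPM or more in both libraries, with a median of 184 TPM in replicate 2 and 187 in replicate 1. Hmgn2, a nucleosome-binding protein gene, led with 1539.18 TPM in replicate 2 and 1545.25 in replicate 1. Hmgb1 had 618.48 TPM in replicate 2 and 687.96 in replicate 1, and Hmgn1 had 396.79 TPM in replicate 2 and 369.69 in replicate 1. Hmgb2, at 183.69 TPM in replicate 2 and 187.19 in replicate 1, lay just below Hmga1. Hmgn5 was lowest, with 13.93 TPM in replicate 2 and 15.99 in replicate 1, so it was the only gene of the list below Hmga2.

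All 3 Igf2bp genes were well expressed, and together they had 170 TPM in replicate 2 and 164 in replicate 1. Igf2bp2, the member that persists in adult tissue (chr16:22059009-22163299, minus strand), had the most, 79.75 TPM in replicate 2 and 75.32 in replicate 1, a mean of 77.5 ± 3.13. Igf2bp3 (chr6:49085223-49214957, minus strand), an oncofetal gene, had 54.00 TPM in replicate 2 and 51.03 in replicate 1, a mean of 52.5 ± 2.10. Igf2bp1, the zipcode-binding protein gene (chr11:95957163-96005940, minus strand), had 36.41 TPM in replicate 2 and 37.19 in replicate 1, a mean of 36.8 ± 0.552. Igf2bp2 was 2.11-fold above Igf2bp1 and 1.48-fold above Igf2bp3, and Igf2bp3 was 1.43-fold above Igf2bp1.

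This order belongs to TPM summed over all annotated transcripts. By counts with no length correction Igf2bp1, whose messenger is 8378 bases long, had 5453 counts in replicate 2 and 7675 in replicate 1, and Igf2bp2 had 5208 in replicate 2 and 6952 in replicate 1. The log2 ratio of Igf2bp1 over Igf2bp2 was -1.07 ± 0.080 on the TPM scale and 0.10 on the count scale. Counts follow length as well as abundance, so the TPM order is the one that compares genes.

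The order also turns on a single Igf2bp2 transcript. Igf2bp2-207, annotated as a retained intron with the weakest support level, 5, held 50.6% of the gene's TPM in replicate 2 and 48.2% in replicate 1. The full coding transcript Igf2bp2-201, with 592 codons, held 37.7% in replicate 2 and 40.0% in replicate 1. Of the 3267 bases of Igf2bp2-207, 3259 (99.8%) are also in Igf2bp2-201, which has 2 exons and 575 bases upstream of it. Its own 8 bases (chr16:22089111-22089118), in capitals below (window chr16:22089071-22089118, minus strand), are all that sets it apart on its own side; they end in AG, where the intron of the coding transcript ends.
Igf2bp2-207 start: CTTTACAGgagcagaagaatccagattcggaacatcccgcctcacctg

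Summed over transcripts typed protein-coding, an alternative chosen after seeing the data, Igf2bp2 had 30.7 TPM in replicate 2 and 31.1 in replicate 1, a mean of 30.9 ± 0.269. Igf2bp1 then had 32.4 TPM in replicate 2 and 32.1 in replicate 1, and Igf2bp3 kept its values, since Igf2bp3-201 holds all of its TPM. Igf2bp3 was thus highest on that scale, 1.70-fold above Igf2bp2 and 1.63-fold above Igf2bp1, and Igf2bp1 over Igf2bp2 was 0.06 ± 0.022 in log2. Igf2bp2 held 46.9% of the family's TPM in replicate 2 and 46.1% in replicate 1 over all transcripts. Over coding ones it held 26.2% in replicate 2 and 27.2% in replicate 1. Hmga2 had 23.4 TPM in replicate 2 and 31.2 in replicate 1 by coding transcripts, so its range overlapped that of Igf2bp2 on that scale. The files divide reads between Igf2bp2-207 and Igf2bp2-201 by the authors' model, and whether Igf2bp2-207 is a separate RNA was not tested.

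**Figure D3:**
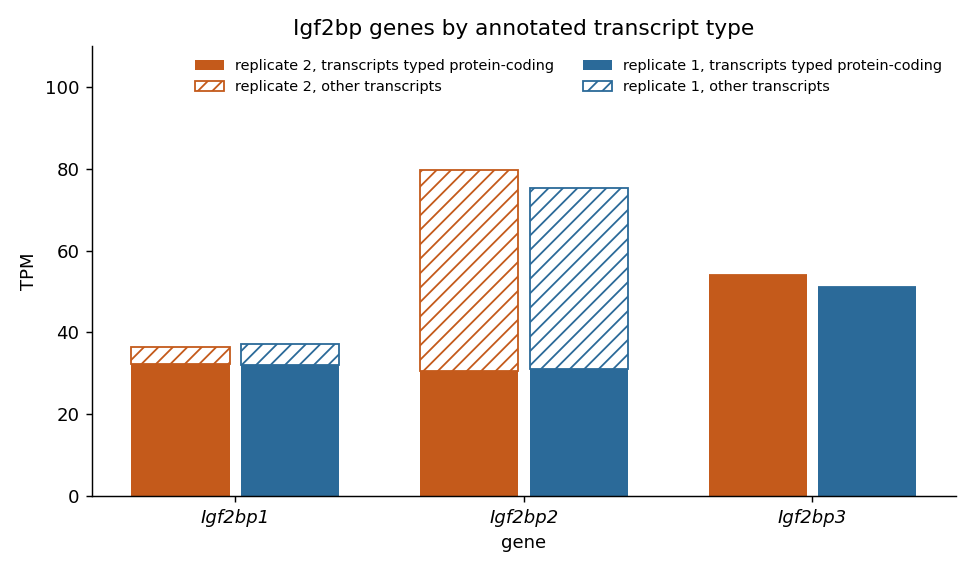
TPM of the Igf2bp genes in replicate 2 (left bar of each pair) and replicate 1 (right bar), split into transcripts typed protein-coding (solid) and all others (hatched). Igf2bp2 is highest by the full bars, at 79.75 TPM in replicate 2 and 75.32 in replicate 1, and Igf2bp3 by the solid bars.

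Reads of Igf2bp3 could be mixed with those of Malsu1, a mitochondrial ribosome assembly gene on the other strand that overlaps its 3′ end by 1529 bases. Malsu1 had 613 counts in replicate 2 and 893 in replicate 1, and Igf2bp3 had 4618 in replicate 2 and 6182 in replicate 1. The deposited posterior SD of the Igf2bp3 count was 14.6 in replicate 2 and 15.9 in replicate 1, which is small beside the counts. That SD rests on the authors' model, and the strand setting is not given in the sources used here. Whether reads of Malsu1 are counted in Igf2bp3 was therefore not tested. Igf2bp1-201, with 577 codons, held 89.1% of Igf2bp1 TPM in replicate 2 and 86.4% in replicate 1, and Igf2bp3-201, with 579 codons, all of its TPM in both.

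RNAs known to be bound by IGF2BP proteins were present, 11 of 12 with 1 TPM or more in both libraries, and had a median of 37.3 TPM in replicate 2 and 46.4 in replicate 1. Actb, the beta-actin gene whose zipcode gave Igf2bp1 its name, had 2299.71 TPM in replicate 2 and 2592.07 in replicate 1. Igf2, the growth factor gene the family is named for, had 803.74 TPM in replicate 2 and 820.00 in replicate 1. H19, the noncoding neighbour of Igf2, had 678.17 TPM in replicate 2 and 807.21 in replicate 1. Ccnd3, a cyclin gene, had 413.07 TPM in replicate 2 and 415.09 in replicate 1, and Mapk4, a kinase gene, was lowest with 0.66 in replicate 2 and 0.42 in replicate 1. Binding was not measured here.

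Partners of IGF2BP proteins in RNA granules all had 1 TPM or more in both libraries, 7 of 7, with a median of 48.1 TPM in replicate 2 and 50.4 in replicate 1. After Ybx1, which also stands in this list, came Hnrnpu, a nuclear RNA-binding protein gene, with 71.29 TPM in replicate 2 and 76.92 in replicate 1. Elavl1, which binds AU-rich elements, had 57.31 TPM in replicate 2 and 54.86 in replicate 1. Syncrip had 48.06 TPM in replicate 2 and 50.36 in replicate 1, and Dhx9, a helicase gene, was lowest with 13.12 in replicate 2 and 15.49 in replicate 1.

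IGF2BP proteins also read N6-methyladenosine, and genes for writing, erasing and reading that mark were expressed, 14 of 14 at 1 TPM or more in both libraries. Their median was 23.0 TPM in replicate 2 and 24.2 in replicate 1. Wtap, a subunit of the writer complex, had 61.36 TPM in replicate 2 and 64.84 in replicate 1. Fto, an eraser gene, had 60.59 TPM in replicate 2 and 51.61 in replicate 1. Of the reader genes, Ythdf2 had 56.23 TPM in replicate 2 and 51.13 in replicate 1, and Ythdf3 had 45.86 in replicate 2 and 39.44 in replicate 1. Ythdc2 was lowest at 4.58 TPM in replicate 2 and 4.17 in replicate 1. In TPM, Igf2bp3 lay just below Ythdf2 in each library, and Igf2bp1 below Ythdf3.

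Described let-7 targets other than the 7 genes were present too, 15 of 16 with 1 TPM or more in both libraries, with a median of 23.6 TPM in replicate 2 and 21.8 in replicate 1. Ccnd2, a cyclin gene, led with 163.42 TPM in replicate 2 and 144.55 in replicate 1. Nras, a small GTPase gene, had 64.29 TPM in replicate 2 and 57.87 in replicate 1. Ccnd1, another cyclin gene, had 50.77 TPM in replicate 2 and 69.76 in replicate 1. Trim71, with 4 seed complements in its UTR, was the lowest. Of the 16 genes, 9 held at least 1 seed complement, where 7.8% of all genes searched did. The list was made of described let-7 targets and UTR length was not matched, so these shares are not a test.

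**Figure D4:**
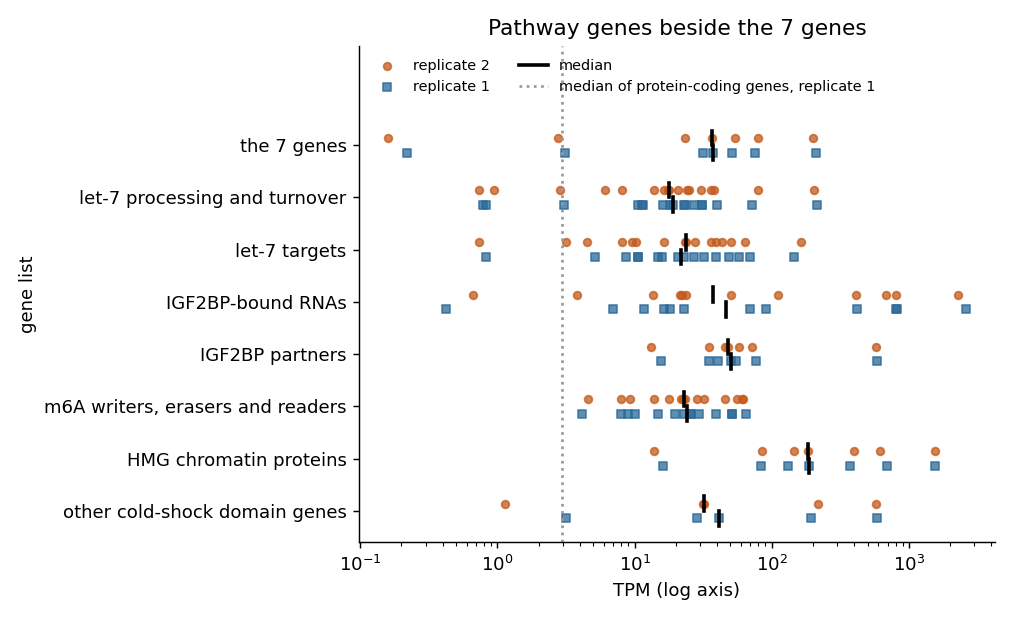
TPM on a log axis of the 7 genes (top row) and of the genes of each pathway list, replicate 2 as circles above replicate 1 as squares, with the list's median as a black bar; the dotted line is the median of all protein-coding genes in replicate 1. The list medians lie between 17.9 TPM (let-7 processing) and 187 TPM (HMG proteins), the 7 genes' median near 37.19, and Lin28a below every listed gene.

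Between the libraries the Igf2bp genes and Hmga1 were closer than most genes, and Lin28b, Lin28a and Hmga2 were not. None of the 7 was 2-fold or more apart after TMM scaling of counts. Of 16621 genes with a summed count of 20 or more, 6.08% were, 299 (1.80%) higher and 712 (4.28%) lower in replicate 2. At so low a share, none among 7 says little about these genes. The percent of the 16621 with a smaller log2 ratio in size was 12.4 for Igf2bp1, 12.2 for Igf2bp2 and 11.0 for Igf2bp3. It was 39.1 for Hmga1, 53.1 for Lin28b and 78.7 for Lin28a. Igf2bp1, Igf2bp2 and Igf2bp3 had log2 ratios of replicate 2 over replicate 1 of -0.04, 0.04 and 0.03, and each 95% interval, which covers counting error only, spanned 0. Lin28b had -0.20 (-0.42 to 0.01) and Lin28a -0.45 (-1.68 to 0.64), the widest interval of the 7. Hmga1 had -0.13 (-0.18 to -0.09), a small ratio resolved by its many counts.

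Hmga2 had the largest ratio of the 7, a log2 value of -0.47 (-0.55 to -0.38), 0.723-fold in replicate 2 relative to replicate 1. Of the 16621 genes, 80.3% had a smaller log2 ratio in size, and the 95th percentile of that size was 1.10. Low counts widen that spread: over the 13354 genes with a summed count of 100 or more, the 95th percentile was 0.64, which the 0.47 of Hmga2 approaches but does not pass. Other measures moved the same way: Afp had 16.26 TPM in replicate 2 and 102.11 in replicate 1, and the median log2 ratio was -2.03 over the 10 liver and yolk sac markers and -0.29 over 7 red cell markers. The 10 liver markers run from 0.24 to 35.04 TPM in replicate 2 and from 1.29 to 102.11 in replicate 1, and none is at 0 in both. Their part in the Hmga2 and Lin28b ratios was not tested. Markers of heart muscle had a median log2 ratio of 0.06 and those of cushion and fibroblast mesenchyme 0.16.

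**Figure D5:**
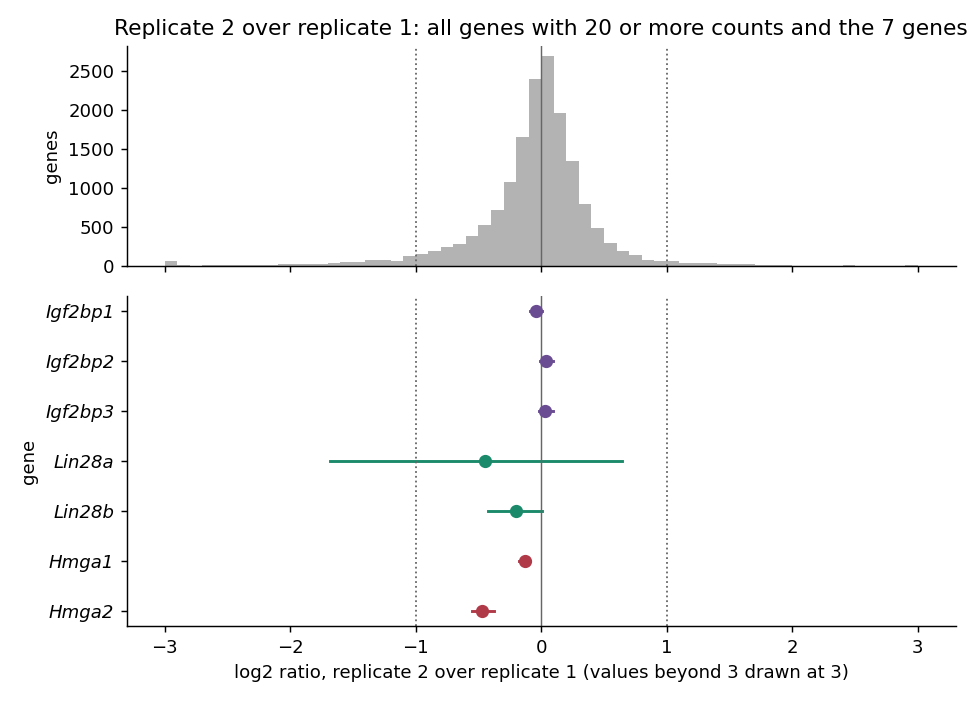
Log2 ratio of replicate 2 over replicate 1: above, the number of genes per bin over all 16621 genes with 20 or more counts; below, each of the 7 genes with its 95% counting interval. Dotted lines mark 2-fold; all 7 points lie between them, Hmga2 at -0.47 and Lin28a with the widest interval.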

How the data were processed

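Total RNA of 2 E11.5 heart libraries was analysed from gene and transcript tables. Per the file headers, the deposited tables hold expected counts (estimated reads, not normalized), TPM over all rows of a library, each also as a posterior mean, and every transcript's percent of its gene's TPM. The texts deposited with them name mm10 and annotation M4; no aligner, quantifier, version or strand setting is named in the sources used.

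Names and coordinates came by identifier from GENCODE M21 on GRCm38, which named 42462 of 43346 mouse genes (98.0%). Means and SDs are over 2 libraries, and p-values were not computed. Where pools are separate only by label, the SD may be technical in part. For the ratio of replicate 2 over replicate 1, expected counts were rounded, scaled by TMM (edgeR 4.0.16, R 4.3.3), and 0.5 was added; 2-fold was called at a summed count of 20 or more, and members have exact Clopper-Pearson 95% intervals, covering counting error only. The code was tested on simulated libraries. DESeq2 1.42.0 size factors were an alternative. Where several transcripts tied for the highest mean TPM, the one with the longest 3′ UTR was searched. The microRNA sequences are RefSeq's (GRCm38.p6) and the transcript sequences GENCODE's. The searched transcripts had the length the authors counted on, except Hmga1-203 and Igf2bp3-201. Hmga1-203 has 1595 bases in M21 and 1635 in the authors' annotation, and Igf2bp3-201 has 4345 and 4344.

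The 7 genes, the lists and their genes were chosen with earlier results of these data known. Named are all 7 genes, the 4 highest and the lowest of each pathway list and its genes 2-fold apart, and transcripts with 10% or more of a gene's TPM in both libraries; of the marker lists, and for Ago4, Tut7, Dis3l2, Ybx3 and the let-7 hosts, single genes were named outside that rule. Some genes that the rule names are not reported here. Over 2 libraries every correlation is 1 or -1, so no genes of similar pattern were named.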

Additional observations from a re-analysis of the deposited data

How the results depend on the processing

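The gene that led each pair in TPM led it under most alternatives, and the exceptions all lie within the Igf2bp genes. Of 30 alternative values of 5 pair ratios, 18 moved by less than the SD, 8 moved by more and 4 reversed. Leaving out 1 of 2 libraries cannot move a mean by more than the SD, so the single-library values are among the 18 by construction. The same holds for the single-library levels and transcript shares counted below. By counts with no length, the log2 ratio was 4.62 for Lin28b over Lin28a, -1.63 for Hmga2 over Hmga1, 0.10 for Igf2bp1 over Igf2bp2, 0.28 for Igf2bp1 over Igf2bp3 and -0.17 for Igf2bp3 over Igf2bp2; leaving out length changes these by construction. By coding transcripts only, chosen after seeing the data, it was 0.06 for Igf2bp1 over Igf2bp2, -0.70 for Igf2bp1 over Igf2bp3 and 0.76 for Igf2bp3 over Igf2bp2. By posterior mean TPM it was 2.35 for Lin28b over Lin28a and -0.58 for Igf2bp3 over Igf2bp2; with 1 added to each TPM, 1.73 and -0.55. Single libraries gave 3.82 to 4.12 for Lin28b over Lin28a, -3.10 to -2.74 for Hmga2 over Hmga1, -1.13 to -1.02 for Igf2bp1 over Igf2bp2, -0.57 to -0.46 for Igf2bp1 over Igf2bp3, and -0.56 in both for Igf2bp3 over Igf2bp2. The number of genes 2-fold apart was 1011, 5655 with a summed count of 1 or more, 194 with 100 or more, 1012 with DESeq2 size factors and 1031 by total counts; it needs both libraries, so none was left out. Of 35 alternative levels of the 7 genes 8 moved by more than the SD, 5 of them by rescaling TPM to mouse genes alone, which raises all 7 by construction. That rescaling took the mean of Hmga1, for example, from 205 to 245 TPM. Of 21 leading transcript shares 3 moved, Lin28a-201 most, to 34.8% by posterior means. No paired analysis was possible because there is 1 group. Depth limits Lin28a, with 32 counts in all.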
